A study of Rattus norvegicus with 12 samples.

Results

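The heart muscle of rats with ischaemic heart failure was compared between animals that ran on a treadmill (HFE group, 3 rats) and animals that stayed sedentary (HF group, 3 rats). All 6 were male Sprague-Dawley rats of 8 weeks when the left anterior descending coronary artery was tied off, so both groups carried an infarct, and no sham-operated rat that exercised was analysed here. Rats were placed in groups by ejection fraction 4 weeks after the ligation. The HFE rats then ran for 60 min a day on 5 days a week over 8 weeks, and hearts were taken 12 weeks after the operation. RNA came from the anterior wall of the left ventricle, and the study's text places the HF tissue around the infarct. Where the HFE tissue lay relative to the infarct is not stated, so the site may differ between the groups. The series holds 12 rats in all, and the Sham rats (operated on without ligation) and the BAIBA rats (ligated and given β-aminoisobutyric acid by mouth) are used below only to show how far single genes range among other rats. HF and Sham rats had water by gavage in the BAIBA experiments, and whether the HFE rats did is not stated. The genes described are those with a symbol in the deposited table, 32623 of its 34700 genes. Of these, 13652 passed the filter on low counts, 7730 had reads but fell below it and 11241 had no read in any of the 6 rats. A further 1286 genes that the authors assembled without a symbol passed as well, so 14938 genes were tested.

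Regular endurance training is known to enlarge the mitochondrial and capillary supply of striated muscle. In the heart it engages growth signalling through insulin-like growth factor 1, phosphoinositide 3-kinase and Akt. After an infarct the surviving ventricle is known for a return of fetal genes, a shift in fuel use, fibrosis and loss of the connexin that couples muscle cells. The lists of genes below follow these themes.

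Each of the 6 libraries held between 14812541 and 19732588 counts on genes, and the 10 most counted genes took 33.0% to 34.9% of each. Correlations of log2 CPM (counts scaled to library size, with the TMM correction for library composition) were 0.949 to 0.970 between rats of a group and 0.952 to 0.971 between rats of different groups. Over the 500 most variable genes, the first principal component carried 38.2% of the variance and set HF rat 1 apart, at 40.8 against −20.3 to 2.33 in the other 5 rats. The tissue carried its labelled type: the summed level of 10 cardiomyocyte markers was 42783 to 49219 CPM in the HFE rats and 42127 to 44380 CPM in the HF rats. The 9 lymphocyte markers summed to 112 CPM in HF rat 1 and to 5.79 to 11.3 CPM in the other 5, and the 12 atrial markers summed to 687 and 776 CPM in HF rats 2 and 3 and to 250.1 to 392 CPM in the rest. Most of the atrial sum in HF rats 2 and 3 was a single gene, Nppa, which is also a stress gene of the ventricle. It was at 456 and 511 CPM there and at 27.4 to 148 CPM in the rest, so the sum does not show atrial tissue. Nothing in the labels ties replicate numbers to litters or days, so a p-value measures the spread among these rats only.

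In the exercised rats the genes for connexin 43, vascular endothelial growth factor A and the chaperone BiP, and many nuclear genes of the respiratory chain, stood higher in all 3 animals than in any sedentary rat. Several genes of the insulin-like growth factor pathway and of macrophages stood lower. These differences were mostly below 1 on the log2 scale, and none passed adjustment for the number of genes tested in the main test. No gene met the study's rule for a differentially expressed gene (DEG), an adjusted p under 0.05 with a log2 fold change over 1 in size, in edgeR's quasi-likelihood test with Benjamini-Hochberg adjustment (0% of genes tested). The lowest adjusted p was 0.148. At an unadjusted p under 0.05, 648 genes were higher in HFE (4.34%) and 491 were lower (3.29%), together 7.62% of the genes tested. All 3 HFE rats lay above all 3 HF rats in 1216 genes (8.14%) and below them in 927 (6.21%). The counts of list members below stand beside these shares of all genes. DESeq2 called 10 DEGs higher (0.043%) and 9 lower (0.0387%) on the same counts, and edgeR without the filter on low counts called 1 in each direction (0.00428%). With HF rats 1, 2 and 3 and HFE rats 1, 2 and 3 left out in turn, 5.06%, 3.9%, 2.83%, 3.34%, 3% and 2.93% of genes were higher at an unadjusted p under 0.05, and 5.05%, 3.15%, 2.82%, 2.57%, 2.83% and 3.13% were lower. The split of unadjusted calls depended on the scaling: 56.9% were higher in HFE with TMM and 36.4% when only library size was scaled (2.56% of genes higher, 4.47% lower), a setting that moved the median log2 fold change of all genes from −0.01 to −0.04. With 3 rats a side the exact two-sided permutation test has 20 assignments and cannot go below p = 0.1, the value it gives to every gene whose groups do not overlap. Adjusted p-values below are edgeR's quasi-likelihood values unless DESeq2 is named. A number in brackets after a gene's levels is its log2 fold change, HFE minus HF, with its standard error (SE) where given, and levels given in threes are rats 1, 2 and 3. The fold changes describe these rats, since none of them passed edgeR's adjustment.

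**Figure D1:**
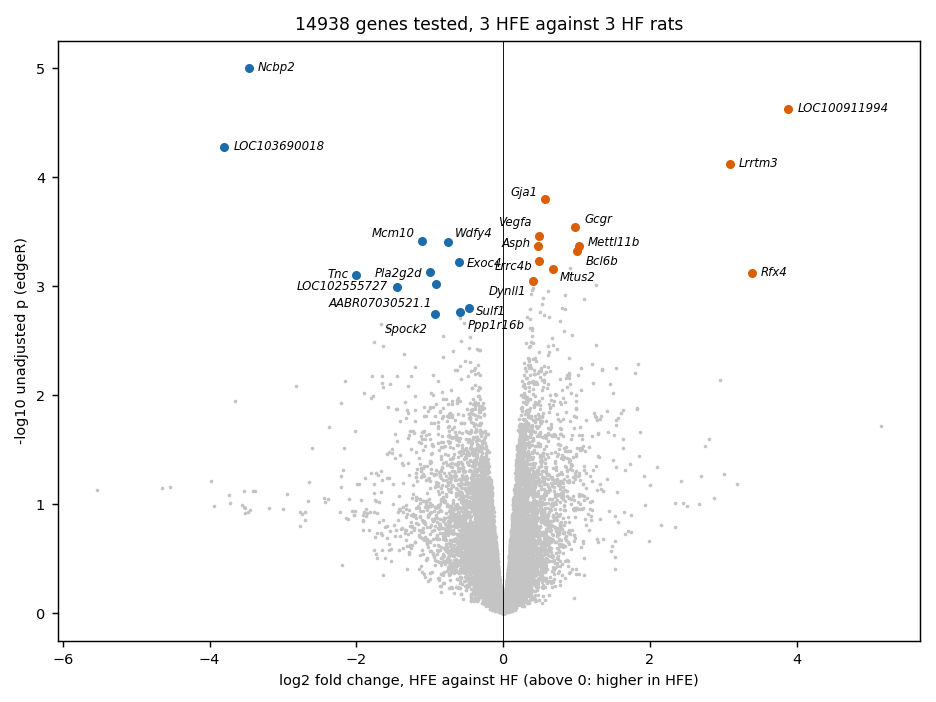
Log2 fold change of HFE against HF (x axis) and −log10 of the unadjusted p from edgeR (y axis) for the 14938 genes tested. Orange and blue points are the 12 higher and 12 lower named genes, with Ncbp2 and LOC100911994 at the top and Gja1 and Vegfa among genes of small fold change.

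Several genes with the smallest p-values among those higher in HFE belonged to cell coupling, vessel growth and calcium release. Gja1 encodes connexin 43, the main gap junction protein of the working ventricle. Its level was 612, 604 and 583 CPM in HFE rats 1 to 3 and 384, 388 and 441 CPM in HF rats 1 to 3. The groups did not overlap, and the log2 fold change was 0.57 (SE 0.08, adjusted p = 0.469; DESeq2 adjusted p = 1.07e-05). The Sham rats ranged more widely, at 549, 569 and 331 CPM, and all 9 other rats of the series lay below the HFE rats. Vegfa encodes vascular endothelial growth factor A, the main driver of capillary sprouting. It stood at 1088, 1108 and 1187 CPM in the HFE rats and at 809, 842 and 776 CPM in the HF rats. Its log2 fold change was 0.48 (SE 0.08, adjusted p = 0.584; DESeq2 adjusted p = 4.6e-05), and all 6 Sham and BAIBA rats lay below the HFE rats, between 716 and 997 CPM.

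Asph encodes aspartate β-hydroxylase and, by alternative splicing, junctin, a partner of the ryanodine receptor at the calcium release site. Its level was 166, 177 and 169.7 CPM in HFE and 121, 130.2 and 118 CPM in HF, a log2 fold change of 0.47 (SE 0.08, adjusted p = 0.584). These counts do not separate the splice forms. Bcl6b, a transcriptional repressor expressed in endothelium, was at 84.2, 89.8 and 93.2 CPM in HFE and 33.1, 53.2 and 47.8 CPM in HF, with a log2 fold change of 1.00 (SE 0.17, adjusted p = 0.591). For both genes every HFE rat stood above all 9 other rats of the series. Gcgr, the glucagon receptor, was at 29.2, 23.6 and 25.5 CPM against 14.5, 14.4 and 10.8 CPM, a log2 fold change of 0.98 (SE 0.15), again with the HFE rats above all others.

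Of the other genes in this group, Dynll1, a light chain of dynein, had little spread within the groups, with 46.1, 44.6 and 43.6 CPM in HFE, 33.1, 35.0 and 33.5 CPM in HF and a log2 fold change of 0.41. Lrrc4b, a leucine-rich repeat adhesion protein, had a log2 fold change of 0.49, and Mtus2, a microtubule-associated scaffold protein, had 0.68. Mettl11b, a methyltransferase of protein amino termini, had 1.03, with levels of 14.9, 14.8 and 18.8 CPM in HFE and 6.62, 9.25 and 7.92 CPM in HF. Its Sham rats spread from below the HF rats to above the HFE rats, at 15.6, 21.5 and 6.39 CPM.

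**Figure D2:**
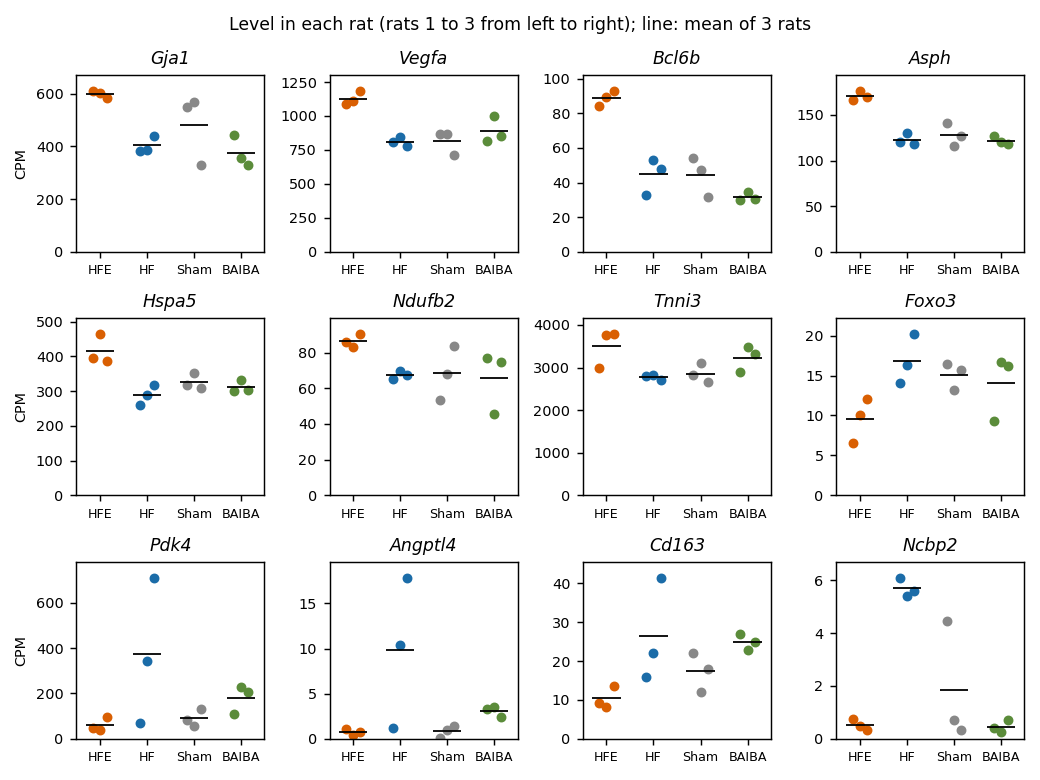
Level (CPM, linear axis from 0) of 12 genes in each of 12 rats, with rats 1 to 3 of a group from left to right and a line at the mean of 3 rats. The HFE rats sit above the HF rats for Gja1, Vegfa, Bcl6b, Asph, Hspa5, Ndufb2 and Tnni3, HF rats 2 and 3 are the highest of the 12 for Pdk4 and Angptl4, and Ncbp2 is high in all HF rats and in Sham rat 1.

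Among the 12 higher and 12 lower named genes, those with the largest fold changes were nearly silent in one group. Several of them ranged as widely among the rats of another group. Over all genes tested, log2 fold changes ran from −5.53 to 5.15. Ncbp2 encodes a subunit of the nuclear cap-binding complex. It was at 0.732, 0.485 and 0.315 CPM in HFE and 6.10, 5.43 and 5.58 CPM in HF, a log2 fold change of −3.46 (SE 0.33, adjusted p = 0.148). The Sham rats, which share neither infarct nor exercise, ranged from 0.326 to 4.46 CPM, so a comparable gap occurred inside a group. A second gene row with the symbol Ncbp2 held no read. LOC103690018, annotated as similar to Golgi reassembly-stacking protein 2, was at 0.266, 0.208 and 0.252 CPM in HFE and 2.11, 5.12 and 3.24 CPM in HF, with 0.231, 4.36 and 0.196 CPM in the Sham rats. The related gene Gorasp2 had 7.66, 11.3 and 11.8 CPM in HFE and 7.64, 8.51 and 7.76 CPM in HF. LOC100911994, annotated as similar to coiled-coil domain-containing protein 132, went the other way, at 3.20, 1.94 and 3.59 CPM in HFE and 0.228, 0.185 and 0.159 CPM in HF. It was at 3.64, 1.28 and 2.71 CPM in the BAIBA rats and at 0.116, 0 and 0.196 CPM in the Sham rats. Its related gene Vps50 had a log2 fold change of −0.04. Reads of such near copies can be divided between rows by the counting, so these values are uncertain.

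Lrrtm3, a leucine-rich repeat transmembrane protein known from synapses, was at 3.53, 5.89 and 6.18 CPM in HFE and 0.342, 0.678 and 0.797 CPM in HF, a log2 fold change of 3.09 (SE 0.39, adjusted p = 0.28), and ranged from 0.662 to 5.12 CPM among the BAIBA rats. Rfx4, a transcription factor of ciliated cells and brain, was at 0.999, 2.15 and 2.96 CPM in HFE and 0.228, 0.0617 and 0.266 CPM in HF, with 0.752, 1.04 and 0.0652 CPM in the Sham rats. Uchl3, a ubiquitin hydrolase, has 2 rows with reads. The row of 693 bases had a log2 fold change of 2.95 and that of 914 bases one of −2.03. Uchl3, Gorasp2 and Vps50 were named after their values were seen.

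DESeq2's 19 DEGs included Ncbp2, LOC103690018, LOC100911994, Lrrtm3, Rfx4, Mettl11b, Mcm10 and Angptl4. The following were named after that call. Slc35c2, a Golgi transporter of nucleotide sugars, was at 35.8, 38.1 and 57.0 CPM in HFE and 21.7, 14.2 and 18.9 CPM in HF (log2 fold change 1.26). Tfrc, the transferrin receptor that brings iron into cells, was at 84.5, 68.7 and 97.7 CPM in HFE and 58.6, 30.3 and 31.5 CPM in HF (1.06). Efhd1, a mitochondrial calcium-binding protein, was at 19.97, 25.8 and 18.3 CPM and 7.36, 12.5 and 10.3 CPM (1.09). In the other direction, Sult1a1, a sulfotransferase, had a log2 fold change of −1.57 and Fmo2, a flavin monooxygenase, one of −1.44. HFE and HF did not overlap for any of these 5 genes. Their adjusted p under edgeR was 0.627 in each case.

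The named genes lower in HFE held regulators of DNA replication, immune function, matrix and membrane traffic. Mcm10, which loads the replication machinery at origins, was at 3.99, 4.78 and 5.80 CPM in HFE and 10.8, 10.4 and 10.2 CPM in HF, a log2 fold change of −1.10 (SE 0.18, adjusted p = 0.584; DESeq2 adjusted p = 0.00437). Unlike the cell cycle genes described below, its 3 HF rats lay close together. Wdfy4, known for antigen cross-presentation by dendritic cells, was at 8.72, 9.64 and 10.3 CPM in HFE and 16.7, 16.3 and 15.3 CPM in HF, and Exoc4, a subunit of the exocyst that tethers vesicles, was at 16.8, 17.7 and 19.7 CPM and 25.6, 28.9 and 27.7 CPM. Pla2g2d, a secreted phospholipase of lymphoid tissue, had a log2 fold change of −1.001, and every HFE rat lay below all 9 other rats of the series.

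Tnc encodes tenascin C, a matrix protein that appears at sites of injury. It was at 0.466, 0.416 and 0.315 CPM in HFE and 1.88, 1.67 and 1.33 CPM in HF, a log2 fold change of −2.01 (SE 0.37, adjusted p = 0.613). Among BAIBA rats it ranged from 0.256 to 4.93 CPM. Sulf1, which trims sulfate from heparan sulfate, had a log2 fold change of −0.46, Ppp1r16b, a regulatory subunit of protein phosphatase 1, had −0.59, and Spock2, a testican proteoglycan, had −0.93. The other 2 of these 12 genes were the predicted genes AABR07030521.1 (−0.92) and LOC102555727 (−1.45).

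Among 31 gene lists, the nuclear-encoded subunits of the respiratory chain and ATP synthase had the most members higher at an unadjusted p under 0.05, in the list with the most members. By the share above 0, the immediate early genes leaned as far (23 of 24), with 1 rat highest as described below. These complexes pass electrons from fuel to oxygen and make ATP in the inner mitochondrial membrane. Of 70 subunits tested, 66 had a log2 fold change above 0, against 48.3% of all genes. At an unadjusted p under 0.05, 27 were higher in HFE and 0 lower, against 4.34% and 3.29% of all genes. All 3 HFE rats lay above all 3 HF rats in 38 subunits and below in 0, against 8.14% and 6.21% of all genes. The median log2 fold change was 0.15, a small difference, and no subunit passed adjustment. The median deviation of the 70 subunits from their mean over the 6 rats, in log2 CPM, was 0.04, 0.10 and 0.08 in HFE rats 1 to 3 and −0.11, −0.07 and −0.04 in HF rats 1 to 3, so the groups did not overlap on this summary either. In bulk tissue, fewer cells of a type and less RNA per cell cannot be told apart.

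In complex IV, cytochrome c oxidase, all 10 subunits tested were above 0 with a median of 0.21. Of these, 7 had an unadjusted p under 0.05 and 8 had no overlap between groups, all higher in HFE. Of all genes tested, 4.34% were higher at that p and 8.14% were higher without overlap. In complex V, the ATP synthase, 14 of 15 were above 0 with a median of 0.17, 8 had an unadjusted p under 0.05 and 10 had no overlap. In complex I, the NADH dehydrogenase, 33 of 35 were above 0 with a median of 0.16, 12 had an unadjusted p under 0.05 and 19 had no overlap. In complex III, the cytochrome bc1 complex, 8 of 9 were above 0 with a median of 0.10, 0 had an unadjusted p under 0.05 and 1 had no overlap. The remaining member was a cytochrome c gene, and the difference between complexes was not tested.

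Ndufb2, a membrane-arm subunit of complex I, was at 85.9, 83.4 and 90.4 CPM in HFE and 65.0, 69.9 and 67.4 CPM in HF, a log2 fold change of 0.36 (SE 0.08, adjusted p = 0.627). Cox7c, a small subunit of complex IV, was at 435, 434 and 483 CPM in HFE and 361, 371 and 326 CPM in HF, with 0.35 (SE 0.09). Atp5f1e, the epsilon subunit of ATP synthase, was at 221, 223 and 223 CPM and 187, 174 and 176 CPM, with 0.31 (SE 0.07), and Ndufb7 was at 178, 168 and 175 CPM and 139.9, 139.9 and 151 CPM, with 0.28. For Atp5f1e and Ndufb7 the HFE rats stood above all 9 other rats of the series, while single Sham or BAIBA rats reached 84.0 CPM for Ndufb2 and 462 CPM for Cox7c. A pair of members stood apart from the rest and were named after their values were seen. Ndufa1 was at 0.533, 44.6 and 13.9 CPM in HFE and 0.342, 0.555 and 0.744 CPM in HF, so 1 HFE rat was as low as the HF rats. Atp5pb was at 11.3, 17.1 and 9.08 CPM and 10.2, 16.2 and 30.5 CPM.

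**Figure D3:**
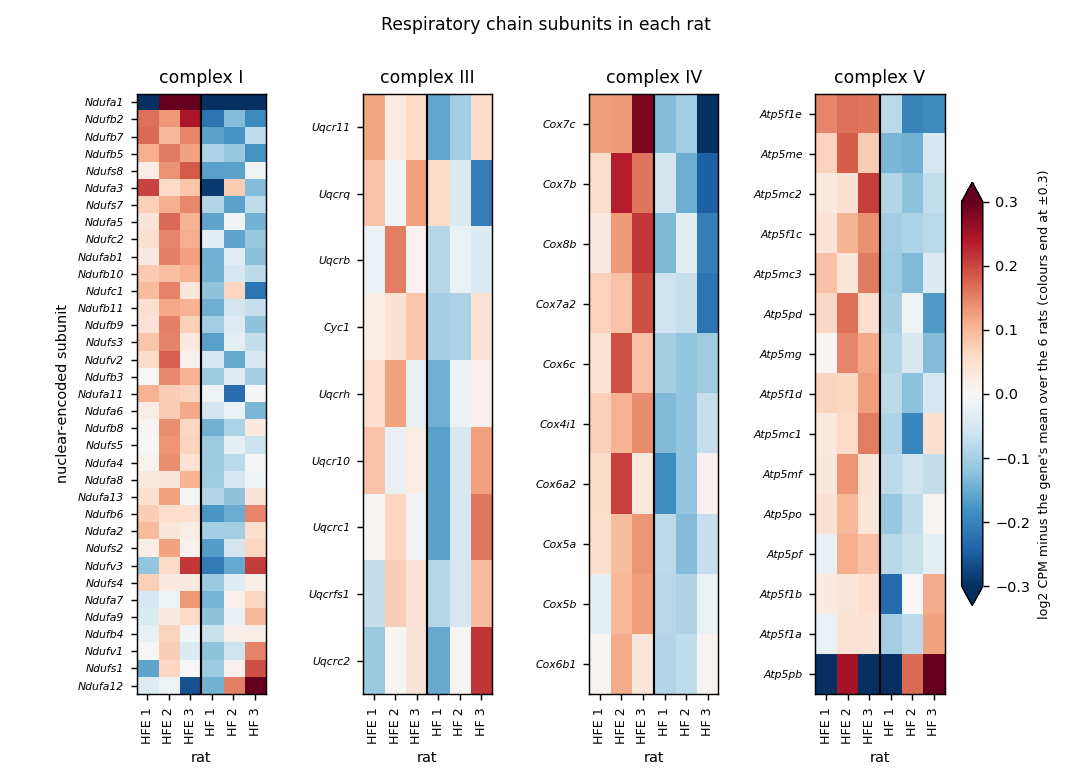
Each cell is a nuclear-encoded subunit's log2 CPM in 1 rat minus its mean over the 6 rats, by complex and sorted by log2 fold change, with HFE rats left and HF rats right of the black line. Warm colours gather on the HFE side in complexes IV and V and fade toward the lower rows of complexes I and III, where HF rat 3 is warm.

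The 13 subunits encoded by mitochondrial DNA did not follow. Their median log2 fold change was −0.08, 3 were above 0, and Mt-nd4, a complex I subunit, had the lowest p, at 2781, 2924 and 2087 CPM in HFE and 3392, 3250.0 and 3263 CPM in HF (log2 fold change −0.34, adjusted p = 0.635). The regulators of mitochondrial biogenesis had 12 of 18 members above 0 and a median of 0.06. Perm1, a muscle regulator of oxidative genes, was at 297, 263 and 299 CPM in HFE and 256, 225 and 233 CPM in HF (0.27), and the mitochondrial transcription factor Tfam had a log2 fold change of 0.20. Ppargc1a, which encodes the coactivator PGC-1α, was at 23.0, 27.0 and 27.4 CPM in HFE and 28.1, 27.2 and 21.8 CPM in HF, with overlapping rats and a log2 fold change of 0.01 (SE 0.13). Of 13 genes of mitochondrial dynamics and mitophagy, 8 were above 0, 0 had an unadjusted p under 0.05 and the median was 0.03.

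The count for the respiratory subunits moved with single rats. The number with an unadjusted p under 0.05 and a higher level in HFE was 14 without HF rat 1, 13 without HF rat 2, 7 without HFE rat 2 and 9 without HFE rat 3. It was 11 with library-size scaling (2.56% of all genes) and 12 in a fit of all 12 rats (4.22% of all genes). The median log2 fold change stayed between 0.14 and 0.18 with each rat left out in turn and was 0.11 with library-size scaling, where that of all genes was −0.04. Without HF rat 1, 56 of the 70 subunits were above 0. In the 250 bases before the start of the gene, the core letters of the NRF1 site (GCGCA followed by its reverse complement) were found for 4 of 62 subunits with a RefSeq promoter (6.45%, against 1.69% of tested symbols) and those of the ETS site (CCGGAAGT, either strand) for 7 (11.3%, against 6.83%). NRF1 and ETS-family factors are known regulators of respiratory genes.

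Gene length moved with the comparison as well. The length that count and FPKM imply was 665 bases at the median of the respiratory subunits. Over all genes tested, the median log2 fold change was 0.09 for 650 genes of up to 500 bases, 0.07 for 1350 genes of 501 to 1000 bases, 0.01 for 4229 of 1001 to 2000 bases, −0.03 for 5605 of 2001 to 4000 bases and −0.05 for 3104 longer genes. The shortest bin was above 0 in each HFE rat and below 0 in each HF rat. Among 1614 genes with lengths between the quartiles of the respiratory list (477 to 1064 bases), 59.2% were above 0, the median was 0.07 and 12.5% had no overlap with HFE higher. A pair of further groups of short transcripts were chosen after their values were seen. The 81 cytosolic ribosomal protein genes had a median of 0.17 with 70 above 0 and 25 without overlap, and the 73 mitochondrial ribosomal protein genes had 0.10 with 60 above 0 and 16 without overlap. The part of length in the result for the respiratory subunits was not tested further.

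**Figure D4:**
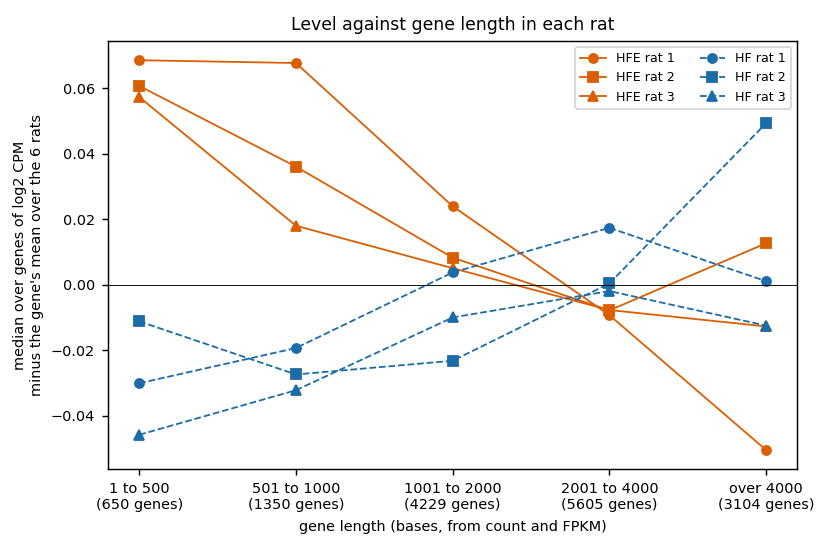
Median over genes of log2 CPM minus the gene's mean over the 6 rats (y axis) by gene length in bases (x axis), 1 line per rat. The 3 HFE rats lie above the 3 HF rats in the bins up to 2000 bases, most in the shortest, and do not in the longer ones.

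The thin filament and light chain genes of the sarcomere stood higher in the HFE rats, while other contractile genes lay on both sides of 0. Of 18 sarcomere and Z-disc genes tested, 11 were above 0 and 7 were higher in HFE without overlap (8.14% of all genes). At an unadjusted p under 0.05, 6 were higher and 0 lower, against 4.34% and 3.29% of all genes. The median was 0.11. These 6 were the troponins, tropomyosin and the ventricular light chains (Tnni3, Tnnt2, Tnnc1, Tpm1, Myl2 and Myl3), of which Tnnc1 and Myl2 were named after their values were seen. Tnni3, cardiac troponin I, was at 2980.5, 3767 and 3783 CPM in HFE and 2797, 2823 and 2698 CPM in HF (0.34, SE 0.11). Tnnt2, cardiac troponin T, was at 7964, 8887 and 7435 CPM and 7097, 6422 and 6655 CPM (0.27), Myl3, the ventricular essential light chain, at 4198, 5249 and 4904 CPM and 3884, 3674 and 4117 CPM (0.30), and Tpm1, tropomyosin 1, at 4552, 4836 and 4895 CPM and 3936, 4038 and 4283 CPM (0.22). These 4 carried an adjusted p of 0.627. The count with an unadjusted p under 0.05 was 1 without HF rat 2, 3 without HFE rat 1, 0 without HFE rat 2 and 1 without HFE rat 3, and without HF rat 1 it was 5, with 2 members lower. The summed cardiomyocyte markers, which share 4 of these genes, overlapped between the groups, 5 of the 10 had an unadjusted p under 0.05 with a higher level in HFE, and their part in these values was not tested.

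The heavy chains and the classical stress peptides overlapped between groups. Myh6, the α-myosin heavy chain, had a log2 fold change of −0.12 (SE 0.15) and Myh7, the β-chain, 0.20 (SE 0.25), and Nppb, B-type natriuretic peptide, had 0.08 (SE 0.27). Nppa, atrial natriuretic peptide, was at 148, 129 and 27.4 CPM in HFE and 67.3, 456 and 511 CPM in HF (−1.76, SE 0.94). Nppa is 1 of the 12 atrial markers and made up most of their sums of 687 and 776 CPM in HF rats 2 and 3. The high sums there therefore repeat the Nppa values and are not a separate sign of atrial tissue. Of 17 fetal and stress genes, 10 were above 0, and the median was 0.03. At an unadjusted p under 0.05, 3 were higher in HFE and 0 lower, against 4.34% and 3.29% of all genes. Fhl2, a LIM protein that restrains calcineurin signalling, was at 1321, 1195 and 1483 CPM in HFE and 877, 1087 and 1022 CPM in HF (0.42, SE 0.11). Actc1, cardiac α-actin, had a log2 fold change of 0.21, and Tnni1, the slow skeletal troponin I of the fetal heart, was at 3.26, 1.87 and 1.83 CPM in HFE and 0.798, 1.60 and 0.957 CPM in HF (1.05).

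Calcium handling had 9 of 17 genes above 0 and a median of 0.02. Of these 17, 4 had an unadjusted p under 0.05, all higher in HFE, where 4.34% of all genes were. One was Asph, described above. Trdn encodes triadin, which anchors calsequestrin to the ryanodine receptor, and was at 255, 298 and 268 CPM in HFE and 204, 229.5 and 209 CPM in HF (0.36, SE 0.09). Hrc, a calcium buffer of the sarcoplasmic reticulum, was at 985, 1070.4 and 1012 CPM and 872, 781 and 749 CPM (0.35), and Camk2d, the main calmodulin kinase of heart muscle, was at 188, 188 and 187 CPM and 166, 156 and 133 CPM (0.31). The pump Atp2a2 had a log2 fold change of −0.07 (SE 0.10) and the release channel Ryr2 one of −0.22 (SE 0.16), values named after they were seen.

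Among 25 ion channel and gap junction genes, 18 were above 0 and the median was 0.15. Of these 25, 3 had an unadjusted p under 0.05, all higher in HFE, where 4.34% of all genes were (5 members without HF rat 1). Per length (FPKM, fragments scaled by transcript length and library size), connexin 43 was at 187 FPKM in HFE and 129 FPKM in HF (means of 3 rats), against 7.82 and 5.92 FPKM for Gjc1, connexin 45, a connexin of the conduction system. Gjc1 was at 14.2, 16.4 and 18.8 CPM in HFE and 12.4, 12.8 and 11.2 CPM in HF (0.44, SE 0.14). Kcnj11, the pore of the ATP-sensitive potassium channel, was at 134, 126 and 126 CPM and 119, 98.9 and 105 CPM (0.26). In the adrenergic, angiotensin and endothelin systems, 11 of 25 genes were above 0 with a median of −0.06. At an unadjusted p under 0.05, 1 was higher and 2 were lower, against 4.34% and 3.29% of all genes. Adra1b, the α1B-adrenoceptor, was at 40.4, 44.2 and 50.6 CPM in HFE and 32.6, 21.4 and 33.3 CPM in HF (0.63). Edn1, the precursor of the vasoconstrictor endothelin 1, was low throughout, at 0.266, 0.0693 and 0.378 CPM and 1.37, 1.23 and 0.691 CPM (−2.15), and Npr3, the natriuretic peptide clearance receptor, was at 6.26, 4.64 and 2.08 CPM and 8.10, 8.88 and 10.4 CPM (−1.07).

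The endoplasmic reticulum stress list held chaperones and folding enzymes that were higher in all 3 HFE rats, besides members on the other side. When unfolded proteins build up in this organelle, the factors ATF6 and XBP1 switch on chaperone genes through a promoter element known as the ER stress response element, in which 9 bases separate CCAAT, bound by NF-Y, from CCACG, bound by ATF6 or XBP1. The 250 bases before the annotated start of each gene were searched for these letters on both strands, with promoters from RefSeq (build GRCr8, not the build of the counts). The letters were found in 14 of 9821 tested symbols with a RefSeq promoter (0.143%) and in 6 of the 18 list members with one (33.3%). The list was chosen by function, and the part of the element in the levels was not tested. These 6 sites are shown with 10 bases on either side and the element in capitals, 5′ to 3′ on the gene's strand. In Calr and Creld2 the element reads in reverse.
Hspa5, chr3:38452963-38453001 (+): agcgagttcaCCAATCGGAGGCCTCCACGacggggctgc
Hsp90b1, chr7:23012441-23012479 (-): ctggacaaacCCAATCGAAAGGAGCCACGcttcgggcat
Xbp1, chr14:84604548-84604586 (+): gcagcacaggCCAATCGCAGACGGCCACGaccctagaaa
Dnajc3, chr15:102432524-102432562 (+): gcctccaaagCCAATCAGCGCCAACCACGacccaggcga
Calr, chr19:40213125-40213163 (+): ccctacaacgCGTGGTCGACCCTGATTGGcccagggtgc
Creld2, chr7:121789229-121789267 (+): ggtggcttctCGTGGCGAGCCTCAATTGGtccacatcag

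Hspa5 encodes BiP, the master chaperone of the endoplasmic reticulum, and its element begins 43 bases before the start. Its level was 394, 464 and 386 CPM in HFE and 261, 288 and 317 CPM in HF, a log2 fold change of 0.53 (SE 0.11, adjusted p = 0.627; DESeq2 adjusted p = 0.0131). All 3 HFE rats stood above all 9 other rats. Xbp1 was at 38.7, 36.9 and 39.2 CPM in HFE and 32.7, 32.1 and 35.1 CPM in HF (0.20, SE 0.08). The other genes with the element, named for it after their values were seen, had log2 fold changes of 0.15 (Hsp90b1, the chaperone GRP94), 0.11 (Calr, calreticulin), −0.02 (Creld2) and −0.15 (Dnajc3), so genes with the element lay on both sides of 0. Pdia6, a disulfide isomerase, was at 100.8, 103 and 97.0 CPM in HFE and 79.5, 85.5 and 80.3 CPM in HF (0.29), and Manf, a secreted stress factor, was at 32.0, 35.4 and 28.7 CPM and 24.3, 20.6 and 27.4 CPM (0.41).

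Over the 23 genes of the list tested, 15 were above 0 with a median of 0.15, and 6 were higher in HFE without overlap (8.14% of all genes). At an unadjusted p under 0.05, 6 were higher and 1 lower, against 4.34% and 3.29% of all genes. The sensor Atf6, named after its values were seen, was the lower one, at 19.3, 21.9 and 21.7 CPM in HFE and 21.8, 27.0 and 29.7 CPM in HF (−0.32). The higher count was 2 without HF rat 2, 3 without HFE rat 1 and 2 without HFE rat 2, while the median stayed between 0.12 and 0.18 with each rat left out in turn. The cytosolic heat shock and proteostasis list had 11 of 22 above 0, a median of 0.00366 and 2 higher against 0 lower, Hspb2 (0.27) and Hspb3 (0.39), small heat shock proteins of muscle.

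The lists of fuel use had medians near 0, and a few switches between fuels had large fold changes. The fatty acid uptake and oxidation list had 16 of 31 above 0 and a median of 0.01. At an unadjusted p under 0.05, 3 were higher and 2 lower, against 4.34% and 3.29% of all genes. Without HF rat 1 the counts were 1 and 5, against 5.06% and 5.05% of all genes, and the list's median was −0.08. Etfb, which passes electrons from fat oxidation to the respiratory chain, was at 277, 322 and 283 CPM in HFE and 222, 233 and 233 CPM in HF (0.36, SE 0.09), and Fabp3, the heart fatty acid binding protein, was at 1886, 1843 and 2317 CPM and 1577, 1667 and 1722 CPM (0.29). Cpt1a, which admits long-chain fatty acids to mitochondria, was at 58.6, 47.7 and 67.1 CPM in HFE and 61.9, 91.9 and 92.9 CPM in HF (−0.51), with overlap. Angptl4, a secreted inhibitor of lipoprotein lipase, was at 1.13, 0.416 and 0.756 CPM in HFE and 1.14, 10.4 and 17.9 CPM in HF (−3.65, SE 1.01, DESeq2 adjusted p = 0.00189). HF rat 1 was level with the highest HFE rat, and HF rats 2 and 3 stood far above.

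Pdk4, the kinase that shuts off pyruvate dehydrogenase, followed the same rats. It was at 47.5, 38.2 and 98.0 CPM in HFE and 68.7, 345 and 711 CPM in HF, a log2 fold change of −2.61 (SE 0.90, adjusted p = 0.634), with HF rat 1 inside the HFE range. Txnip, an inhibitor of glucose uptake, and Ucp3, an uncoupling protein, were looked up because of this pattern. Txnip was at 286, 417 and 466 CPM in HFE and 430.0, 999 and 1119 CPM in HF, and Ucp3 was at 10.2, 6.24 and 6.05 CPM and 4.62, 15.2 and 41.0 CPM, with HF rats 2 and 3 highest for both. The list of pyruvate dehydrogenase and the citrate cycle had 15 of 29 above 0 and a median of 0.02. At an unadjusted p under 0.05, 0 were higher and 1 lower, Pdk4 itself, against 4.34% and 3.29% of all genes. Without HF rat 1, 5 were lower (5.05% of all genes). Glucose use had 15 of 26 above 0, a median of 0.02, and 1 higher and 1 lower beside the same shares of all genes, or 3 and 1 without HF rat 1. Pgam2, muscle phosphoglycerate mutase, had a log2 fold change of 0.35, and Pfkfb3, which makes the activator of phosphofructokinase, had −0.43.

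The AMPK list, the energy sensor and its upstream kinases, had 8 of 11 above 0 and a median of 0.04. Its 2 members with an unadjusted p under 0.05 were both higher in HFE, where 4.34% of all genes were. These were regulatory subunits, Prkag3 at 11.7, 10.4 and 10.1 CPM in HFE and 8.27, 8.02 and 9.04 CPM in HF (0.35) and Prkag2 (0.21). The catalytic subunits Prkaa1 (0.03, SE 0.11) and Prkaa2 (−0.46, SE 0.59) overlapped between groups. Without HF rat 1 the list had 0 members with an unadjusted p under 0.05 and a median of −0.01. In branched-chain amino acid and β-aminoisobutyric acid metabolism, 9 of 20 were above 0 with a median of −0.01. At an unadjusted p under 0.05, 2 were higher and 0 lower, against 4.34% and 3.29% of all genes. Without HF rat 1 the counts were 3 and 2, against 5.06% and 5.05%. Bcat2, the mitochondrial transaminase that begins branched-chain breakdown, was at 114, 118 and 118 CPM in HFE and 97.4, 99.8 and 97.3 CPM in HF (0.25, SE 0.07), and Pccb, a subunit of propionyl-CoA carboxylase, had 0.23.

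In the list for physiological growth the members with an unadjusted p under 0.05 were all lower in HFE, 5 of 23, and the same 5 had no overlap. Of all genes tested, 3.29% were lower at that p and 6.21% were lower without overlap. The list's median was −0.14, with 6 above 0. Of the 5 lower members, 4 are described here, and they sit at several points of the insulin-like growth factor pathway, a receptor, kinases and a factor that Akt restrains. Igf1r, the receptor, was at 4.46, 6.79 and 4.73 CPM in HFE and 6.84, 8.51 and 9.67 CPM in HF (−0.64, SE 0.23), Pik3r1, the regulatory subunit of phosphoinositide 3-kinase, at 44.2, 58.9 and 77.5 CPM and 110.1, 79.5 and 92.1 CPM (−0.64), and Mtor, the kinase of protein synthesis, had −0.22. Foxo3, the atrophy factor that Akt inhibits, was at 6.59, 10.1 and 12.04 CPM and 14.03, 16.3 and 20.2 CPM (−0.81). The ligand Igf1 overlapped, with −0.17 (SE 0.21). Mtor and Igf1 lie outside the naming rule and were named after their values were seen. With HF rat 2 left out the median was −0.05, and the lower count was 3 without HF rat 2 or HFE rat 1.

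Autophagy and muscle atrophy had 9 of 24 above 0 and a median of −0.06. At an unadjusted p under 0.05, 0 were higher and 4 lower, against 4.34% and 3.29% of all genes. The lower count was 8 without HF rat 1, 1 without HF rat 2 or HF rat 3, and 2 without HFE rat 1 or HFE rat 3. Atg7, the enzyme that starts lipidation of the autophagosome proteins, was at 6.19, 5.68 and 5.93 CPM in HFE and 7.59, 8.45 and 8.61 CPM in HF (−0.47, SE 0.15). Such proteins were lower as well, Gabarapl1 (−0.41) and Map1lc3b (−0.30), with the lysosomal protease Ctsl (−0.26). Antioxidant defence had 12 of 33 above 0 and a median of −0.02, with 2 higher and 6 lower beside the same shares of all genes. Its lower count was 2 to 3 without any one rat other than HF rat 1. Hmox1, haem oxygenase 1, was at 6.79, 5.55 and 8.45 CPM in HFE and 7.93, 18.7 and 14.8 CPM in HF (−0.99), and the metallothionein Mt2A was at 5.26, 2.22 and 3.28 CPM and 8.61, 10.7 and 6.54 CPM (−1.26). Selenop, the selenium carrier, had −0.42, while Gsta4, which detoxifies lipid aldehydes, was on the higher side at 33.2, 35.4 and 32.2 CPM and 17.2, 26.1 and 24.1 CPM (0.59).

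Among apoptosis regulators, 9 of 24 were above 0 and the median was −0.14. At an unadjusted p under 0.05, 1 was higher and 1 lower, against 4.34% and 3.29% of all genes. Bax, which opens the outer mitochondrial membrane, was at 11.9, 10.2 and 9.77 CPM in HFE and 8.61, 6.78 and 8.77 CPM in HF (0.40, SE 0.16), and Bcl2l11, the activator BIM, had −0.32. Bcl2 (0.29, SE 0.25) overlapped. Of the 19 genes in the list of proteins and transcripts also assayed by other means, 10 were above 0 with a median of 0.01, and Bax and Cpt1a alone had an unadjusted p under 0.05.

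Vascular growth had 22 of 35 genes above 0, a median of 0.09, and 4 with an unadjusted p under 0.05, all higher in HFE, where 4.34% of all genes were. The median was 0.02 without HFE rat 3 and 0.22 without HF rat 2. Of the ligands, Vegfa had the highest level per length, at 310.3 FPKM in HFE and 228 FPKM in HF, against 62.9 and 56.9 FPKM for Vegfb and 4.70 and 3.57 FPKM for Vegfc (means of 3 rats). Vegfc, the lymphatic ligand, was at 10.7, 10.9 and 9.20 CPM in HFE and 6.90, 7.65 and 8.34 CPM in HF (0.43), and Apln, apelin, a peptide of growing vessels that raises contractility, was at 16.3, 17.5 and 23.1 CPM and 12.6, 12.3 and 8.29 CPM (0.78, SE 0.21). The receptors Kdr (0.25, SE 0.18) and Flt1 (−0.09, SE 0.16), named after their values were seen, overlapped, as did the summed endothelial markers, at 1602 to 1932 CPM in HFE and 1787 to 2185 CPM in HF. Of 20 myokines and cardiokines, 10 were above 0, the median was −0.00322, and 3 were higher and 1 lower, which included Vegfa, Apln and Angptl4. Gdf11, a growth differentiation factor, was at 21.0, 21.1 and 28.0 CPM in HFE and 16.4, 14.3 and 18.2 CPM in HF (0.52).

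The matrix lists showed no common direction. Collagens and matrix had 21 of 41 above 0 and a median of 0.01. At an unadjusted p under 0.05, 2 were higher and 2 lower, against 4.34% and 3.29% of all genes. Col1a1, the main fibrillar collagen chain, was at 144, 127 and 123 CPM in HFE and 104, 115 and 109 CPM in HF (0.27, SE 0.09), Col6a2 had 0.21, and fibronectin, Fn1, was at 31.2, 27.0 and 25.1 CPM and 32.0, 36.4 and 50.2 CPM (−0.51). Without HF rat 1, 7 members were lower at an unadjusted p under 0.05 (5.05% of all genes). Fibroblast activation and TGF-beta signalling had 11 of 25 above 0, a median of −0.03 and 0 on either side, or 3 lower and a median of −0.10 without HF rat 1, with Tgfb1 at 24.2, 23.2 and 25.3 CPM and 27.0, 26.8 and 28.8 CPM (−0.18). Matrix proteases and inhibitors had 7 of 15 above 0, a median of −0.03, 1 higher (Mmp15, 0.29) and 1 lower (Timp2, −0.36).

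The macrophage receptors Cd163 and Mrc1 were lower in all 3 HFE rats, and the monocyte-attracting chemokines Ccl2 and Ccl7 were higher. The inflammation and macrophage list had 6 of 31 above 0 and a median of −0.24. At an unadjusted p under 0.05, 2 were higher and 3 lower, against 4.34% and 3.29% of all genes. Cd163, the haemoglobin scavenger receptor of resident macrophages, was at 9.32, 8.25 and 13.7 CPM in HFE and 15.9, 22.0 and 41.5 CPM in HF (−1.34, SE 0.38, DESeq2 adjusted p = 0.0568), and Mrc1, the mannose receptor, at 17.1, 14.1 and 16.8 CPM and 18.1, 24.7 and 37.8 CPM (−0.75, SE 0.26). Of the 9 macrophage markers, 0 were above 0 and 3 were lower at an unadjusted p under 0.05, where 3.29% of all genes were. They summed to 123 to 179.7 CPM in HFE and 174 to 287 CPM in HF, so the sums overlapped, and the share of macrophages in the tissue cannot be told apart from their RNA. Ccl2 was at 6.72, 4.58 and 9.27 CPM in HFE and 2.74, 3.45 and 2.39 CPM in HF (1.26, SE 0.30), and Ccl7 at 2.06, 2.77 and 3.72 CPM and 1.37, 0.802 and 1.17 CPM (1.35). Without HFE rat 1 the list's median was −0.46. The lower count was 6 without HF rat 1 or HF rat 2, 5 without HFE rat 1 and 1 without HFE rat 2 or HFE rat 3, and the higher count was 4 without HF rat 1.

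In 3 lists a single rat was highest for nearly all members, and the medians without that rat stand beside them. The immediate early genes, the first wave of transcription after a stimulus, had 23 of 24 above 0 and a median of 1.08. HFE rat 3 was the highest of the 6 rats in 23 of them, and the list summed to 2954 CPM there against 465 and 575 CPM in HFE rats 1 and 2 and 382 to 941 CPM in the HF rats. Nr4a1, an orphan nuclear receptor, was at 15.5, 21.9 and 250.5 CPM in HFE and 30.2, 5.55 and 9.35 CPM in HF, and Atf3 at 3.06, 4.85 and 66.0 CPM and 4.51, 2.84 and 5.74 CPM. Of the 24, 0 had an unadjusted p under 0.05, and without HFE rat 3 the median was −0.22.

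The cell cycle list had 3 of 31 above 0 and a median of −0.58. HF rat 1 was the highest of the 6 rats in 29 of these genes, and the list summed to 425 CPM there against 187 to 243 CPM in the other 5. This was the rat with the lymphocyte markers. Without it the median was 0.42, and 8 members had an unadjusted p under 0.05 with a higher level in HFE (5.06% of all genes). Ccnd1, cyclin D1, which carries cells into the cycle, was not highest in this rat, at 89.6, 100.9 and 97.1 CPM in HFE and 62.2, 75.4 and 50.1 CPM in HF (0.62, SE 0.15; DESeq2 adjusted p = 0.0581), with all HFE rats above all HF rats. Bub1b, a spindle checkpoint kinase, was at 0.799, 0.763 and 1.198 CPM and 7.02, 0.740 and 1.17 CPM.

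The interferon response and antigen processing list had 17 of 28 above 0 and a median of 0.03, and HFE rat 2 was the highest of the 6 rats in 23 of them. Isg15, a ubiquitin-like protein made under interferon, was at 6.32, 15.3 and 6.87 CPM in HFE and 5.13, 4.75 and 9.19 CPM in HF, and without HFE rat 2 the median was −0.37. The circadian clock list had 10 of 18 above 0 and a median of 0.05, and the median was −0.25 without HFE rat 3. Npas2, a partner of the clock activator BMAL1, was at 14.98, 11.7 and 4.60 CPM in HFE and 1.83, 6.66 and 2.39 CPM in HF (1.53, SE 0.62), with overlap.

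**Figure D5:**
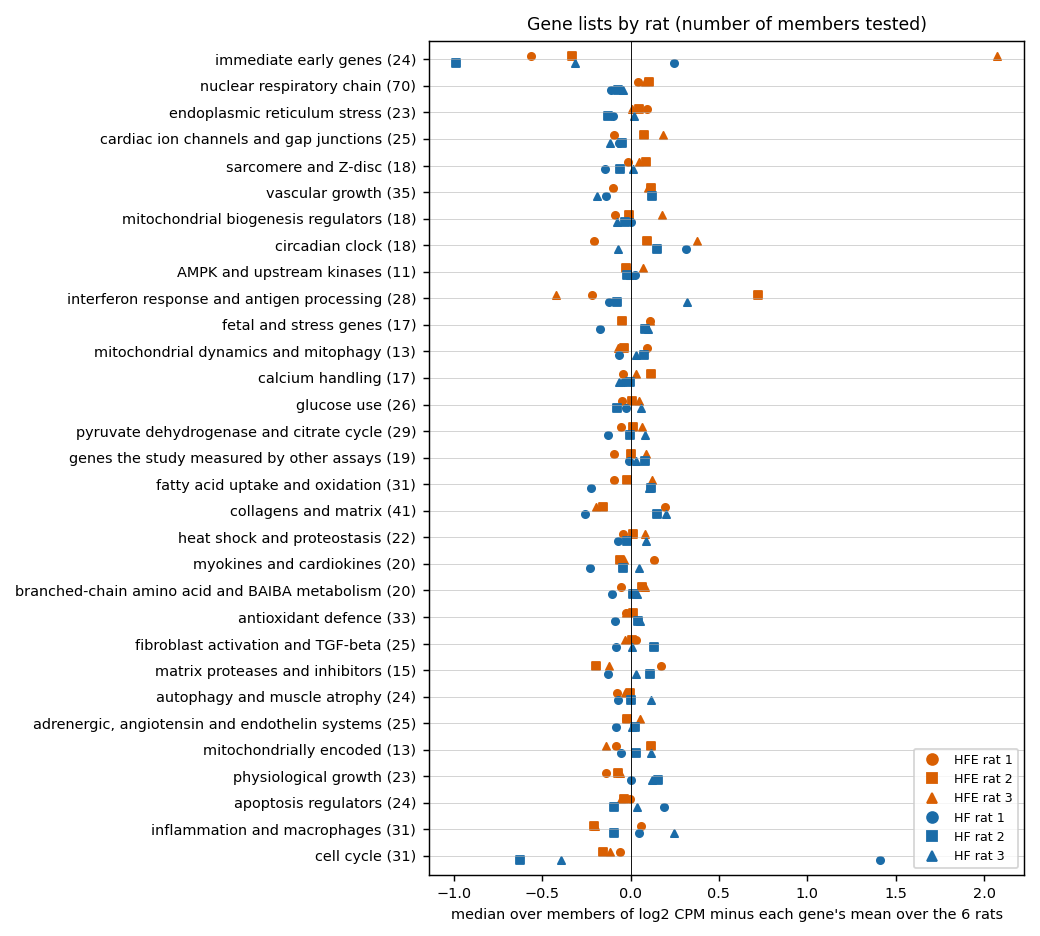
Median over the tested members of each of 31 gene lists of log2 CPM minus the gene's mean over the 6 rats (x axis), 1 point per rat, with the number of members in brackets. The HFE and HF rats separate without overlap for the nuclear respiratory chain and for physiological growth, while single rats carry the immediate early genes, cell cycle and interferon lists.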

How the data were processed

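Poly(A) RNA of the anterior left ventricle was sequenced from 12 rats, 3 per group, of which the 3 HFE and 3 HF rats were compared. The raw counts per gene were deposited by the authors, whose notes name HISAT2, StringTie, featureCounts and DESeq2 without versions. FPKM, deposited by the authors in the same table, divide these counts by gene length and library size. The notes list the genome build mm9, a mouse build, although the identifiers are rat Ensembl genes, so no coordinates of the counts are given. Strand-specific counting is not stated, and overlapping genes may share reads.

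Counts were tested with edgeR 4.0.16 in R 4.3.3 (quasi-likelihood test, TMM scaling, filterByExpr, Benjamini-Hochberg adjustment over 14938 genes) on the 6 rats, without covariates. DESeq2 1.42.0 and limma 3.58.1 were alternatives. CPM are TMM-scaled. The edgeR, DESeq2 and limma-voom fits were tried on simulated counts, and the other steps were not. The genes named were the 12 higher and 12 lower genes with the smallest p, no overlap between groups and a mean of at least 1 CPM, up to 4 members of each list by p, the genes measured by other assays in the study, Myh6, Myh7, Nppa and Nppb, and markers; exceptions are stated. The gene lists and this rule were chosen with earlier results of these data known. Some genes of the lists are not reported here by name. Promoters are those of RefSeq (GRCr8), matched by symbol for 9821 tested symbols. Depth was 14812541 to 19732588 counts per rat. The 17 alternatives comprised other tools, scalings, filters, the FPKM values, all 12 rats, a replicate block and each rat left out. Same-numbered rats of the groups did not deviate together (r = 0.0413, 0.0552 and 0.000581, below the 0.1 set for pairing), so replicate numbers were not used to pair rats.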

Additional observations from a re-analysis of the deposited data

How the results depend on the processing

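The count of 0 DEGs in edgeR became 10 higher and 9 lower in DESeq2, and 1 higher (LOC100911994) and 1 lower (Ncbp2) without the filter on low counts. With library-size scaling, 383 genes were higher at an unadjusted p under 0.05 and the respiratory median was 0.11, and limma-voom with sample weights gave −0.12 for fibroblast activation and TGF-beta. The causes were not tested. With each rat left out in turn, the count of lower genes at an unadjusted p under 0.05 ran from 393 to 768, the latter without HF rat 1. Medians of lists ran from −0.129 to −0.0529 for physiological growth, −0.0351 to 0.0755 for AMPK, −0.0561 to 0.0696 for branched-chain amino acids, −0.0318 to 0.12 for calcium handling, −0.12 to 0.087 for the adrenergic, angiotensin and endothelin systems, −0.46 to −0.18 for inflammation, −0.25 to 0.18 for the circadian clock, −0.0404 to 0.0883 for heat shock, −0.22 to 1.53 for immediate early genes and −0.92 to 0.42 for the cell cycle. The replicate block gave 0 DEGs, 659 higher and 622 lower genes at an unadjusted p under 0.05, and not every rat correlated best with its own number. Genes near 1 CPM rest on about 15 to 20 counts a rat, so their levels are the least precise.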
